A study of Mus musculus with 30 samples.

Results

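The 9 genes described here carry out or set off regulated cell death and were followed in mouse retina after bright light: Ripk1, Ripk3 and Mlkl of necroptosis, Casp8 of the death receptor pathway, Casp1, Casp4 and Gsdmd of pyroptosis, and Bax and Bcl2l11 of mitochondrial apoptosis. They were taken by gene name from the deposited tables of transcript counts, summed per gene, and are 9 of 42439 genes. The retinas came from male and female mice 4 to 6 weeks old on a C57BL/6J background. Every mouse carried Abca4-/-Rdh8-/-, so no group had the wild-type alleles of these photoreceptor and retinal pigment epithelium genes. The mice were kept in 12 h of light at up to 10 lux and 12 h of dark.

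The 30 libraries of neural retina fell into 10 groups of 3, in experiments performed and analysed separately. The mixture experiment held a no-light group and a light group, both given DMSO, and groups given BMT (BRM, MTP and TAM) or MDB (MTP, DOX and BRM) before light. The single-drug experiment held its own no-light and light groups with DMSO, and groups given BRM, MTP, TAM or DOX alone before light. Light was 10000 lux for 30 min, injections were intraperitoneal 30 min earlier, and retinas were taken 24 h later. BRM is bromocriptine, which activates D2-type dopamine receptors. MTP is metoprolol, a blocker of the beta-1 adrenergic receptor, and TAM (tamsulosin) and DOX (doxazosin) block alpha-1 adrenergic receptors. The sources used here give no doses, and no group received a drug without light. The labels do not say that each library was a different animal, so p-values measure the spread between these libraries.

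Necroptosis begins when a death receptor such as the TNF receptor engages the kinase RIPK1. RIPK1 recruits RIPK3, which phosphorylates MLKL, and MLKL ruptures the plasma membrane. Caspase-8 cleaves RIPK1 and RIPK3, which holds necroptosis back, and it can start apoptosis instead. In pyroptosis, caspase-1 or caspase-4 cleaves gasdermin D, whose fragment forms pores. In mitochondrial apoptosis, BIM (Bcl2l11) releases BAX to permeabilise the outer mitochondrial membrane. Death of photoreceptors after intense light is a standard model of retinal degeneration, and the comparisons asked how light and each pretreatment changed retinal gene expression.

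The stretches next to the start sites of Ripk1, Casp8 and Casp1 are shown because these 3 genes rose with light in both experiments. They were read from the RefSeq promoter table on GRCm38.p6, which held 8 of the 9 genes, and run 5′ to 3′ on the plus strand. The Ripk1 stretch is chr13:34002795-34002873, ahead of the start of Ripk1-002 at 34002874, and leaves out upstream bases that lie in annotated exons. The Casp8 stretch, chr1:58802252-58802501, lies in an intron of Casp8-001 and ahead of the first base of Casp8-002. The Casp1 stretch is chr9:5298267-5298516, ahead of the start of Casp1-201. Capitals mark a match to one of the motifs searched.
Ripk1: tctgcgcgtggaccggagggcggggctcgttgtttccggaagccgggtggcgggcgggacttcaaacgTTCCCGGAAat
Casp8: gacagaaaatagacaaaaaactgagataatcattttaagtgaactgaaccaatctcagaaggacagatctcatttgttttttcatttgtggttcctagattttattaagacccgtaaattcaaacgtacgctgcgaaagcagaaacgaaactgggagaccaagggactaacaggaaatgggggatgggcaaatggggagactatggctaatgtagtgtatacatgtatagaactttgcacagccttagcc
Casp1: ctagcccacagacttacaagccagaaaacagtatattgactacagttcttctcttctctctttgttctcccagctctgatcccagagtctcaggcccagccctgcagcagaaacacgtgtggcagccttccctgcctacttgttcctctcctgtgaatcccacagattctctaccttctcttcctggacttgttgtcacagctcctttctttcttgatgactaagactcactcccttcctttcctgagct
Each motif was searched on both strands in the 250 bases before every RefSeq start. The capitals in Ripk1 match TTCCNGGAA, a form bound by STAT factors, which was present in 0.913% of 32851 promoters. These letters also match the wider TTCNNNGAA, found in 7.02%. The match begins 11 bases before the start. The same letters, TTCCCGGAA, also begin 108 bases before it, at 34002766 to 34002774. At least 2 matches to TTCCNGGAA were found in 7 promoters, or 0.0213% of all. That count was made for this form alone and not for the other forms searched, so it is only a description. The windows of Casp8 and Casp1 held no match, nor did the first Ripk1 start or those of Ripk3, Mlkl, Bax and Bcl2l11. The Casp8 window lies ahead of Casp8-002, which held 29.5% of Casp8 counts. The start of Casp8-001, which held 50.6%, lies upstream at 58795374 and was not among the starts searched. Casp4 held GGGGATTTCC and GGAAATGCCC, matches on opposite strands to the NF-κB form (GGG, any 2 bases, TTTCC), found in 1.41% of promoters. An interferon-response form (GAAA, any 2 bases, GAAA), present in 2.98%, and TGANTCA, the AP-1 form, present in 6.75%, were in none of the windows of the 8 genes. A match is a description of the letters, and no binding was measured.

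The libraries held 18.5 to 25.8 M assigned counts in the mixture experiment and 12.0 to 22.2 M in the single-drug experiment. Rod markers were abundant in every library, as the label neural retina calls for. Lens-fibre genes were also present, with a summed level of 3.87 to 2451 CPM (counts scaled to the library total) and a score of at least 4 (the mean log2 CPM of 6 genes) in 16 of 30 libraries. The deleted genes were both counted, with Abca4 at 320 to 919 CPM and Rdh8 at 19.4 to 46.9 CPM, so gene-level counts do not check the genotype. Levels below are CPM after scaling by trimmed means, and values from edgeR's quasi-likelihood test are log2 differences ± SE with Benjamini-Hochberg adjusted p over all genes tested, called under 0.05.

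With light, Ripk1, Casp8 and Casp1 rose in both experiments, and none of the 6 tested genes was called lower. Of the 9, 6 had enough counts to be tested, and 3 of those 6 were called higher in each experiment. Among all genes tested, 7.75% were called higher and 5.47% lower in the mixture experiment, and 11.4% higher and 12.6% lower in the single-drug experiment. Casp1 passed the filter on low counts only through its light libraries in both experiments, as did Gsdmd in the single-drug experiment. Entry to the test was then set by the level with light, so the count of 3 of 6 is a description and supports nothing about the 9 members. Ripk1, Mlkl, Casp8 and Casp1 had every light library above every library of all other groups in the same experiment. The same was found for 9.51% of tested genes in the mixture experiment and 6.21% in the single-drug experiment, and light lay wholly above no light for 16.5% and 20.3%. Mlkl was not among the tested genes, and Casp1 was there only through its light libraries, so these shares are not a like background for either. Bulk retina cannot tell fewer cells of a type from less RNA per cell.

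**Figure D1:**
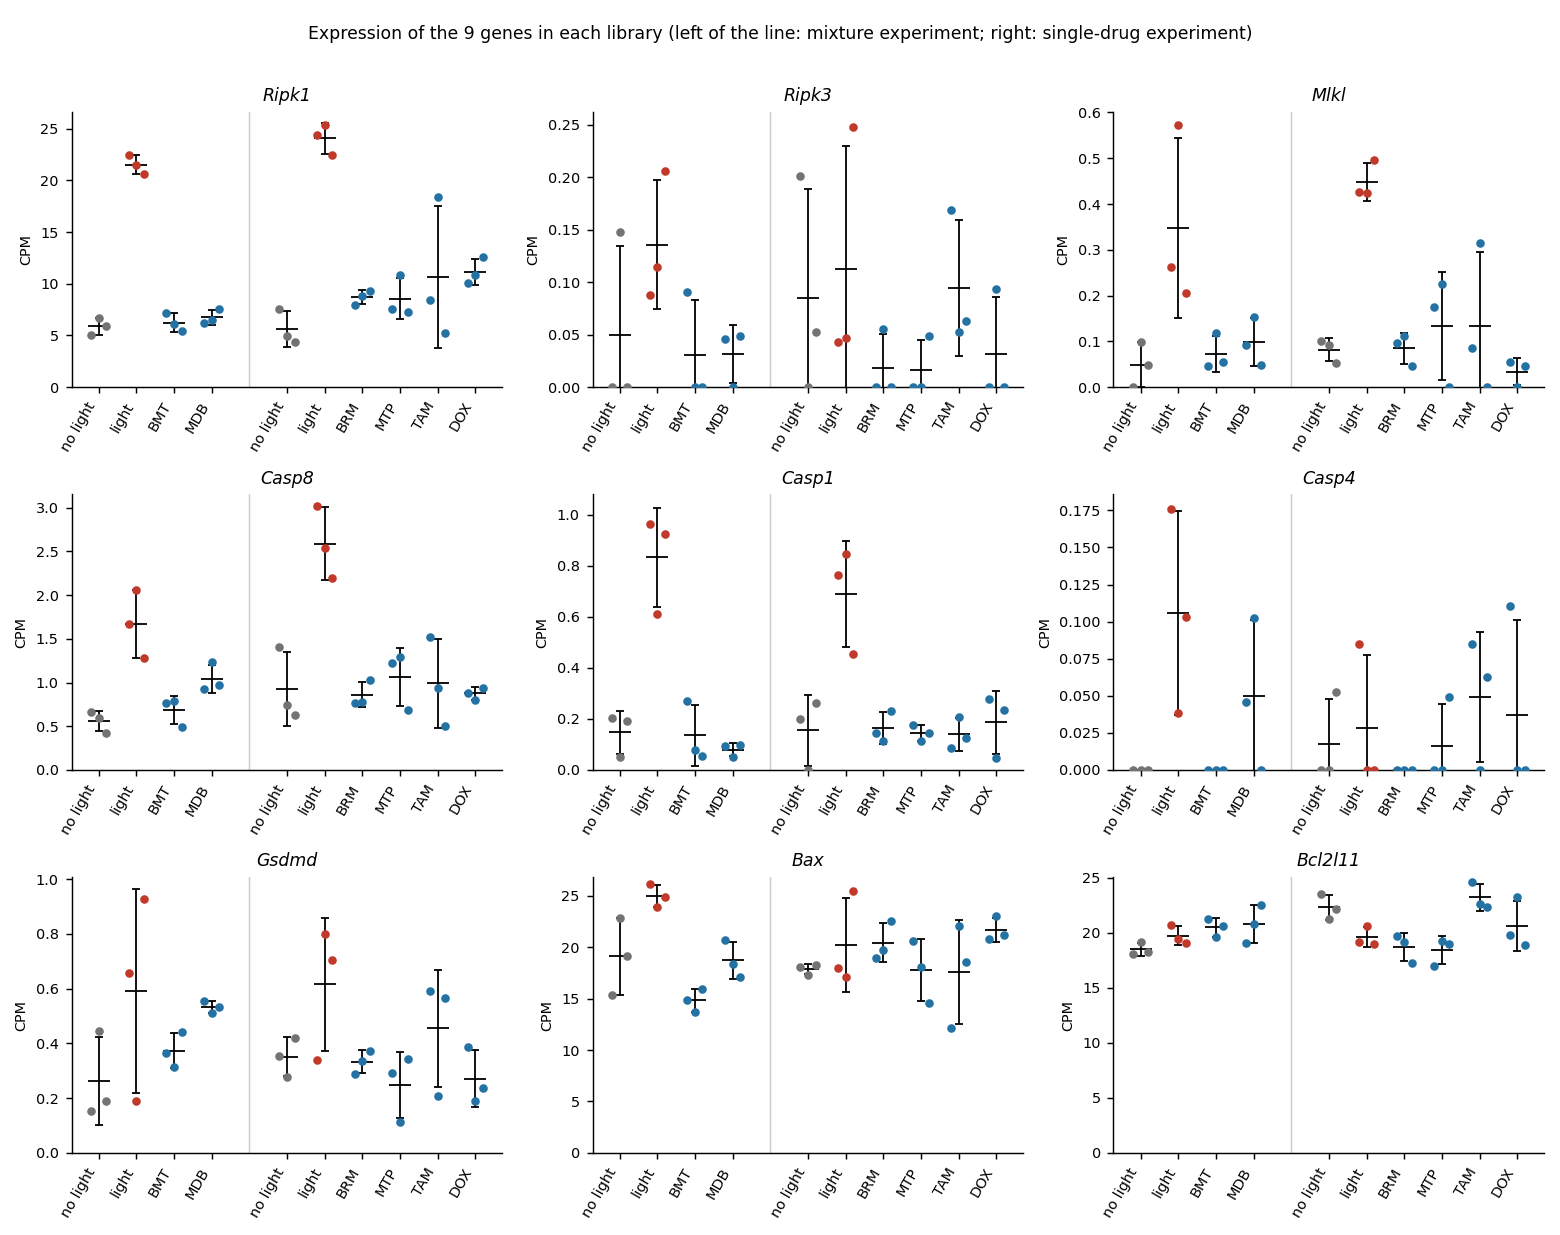
Level of each of the 9 genes in each library, in CPM on a linear axis per panel; points are single libraries, horizontal lines means and error bars SD of 3, with the mixture experiment left of the line and the single-drug experiment right. Ripk1 in the 6 light libraries sits between 20.6 and 25.4 CPM, above all 24 other libraries.

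Ripk1 (ENSMUSG00000021408, chr13:34002363-34035170, plus strand) encodes the kinase that starts necrosome assembly and also scaffolds survival signalling. Its level without light was 5.03, 6.67 and 5.90 CPM in the mixture experiment and 7.55, 4.97 and 4.32 CPM in the single-drug experiment. After light it was 22.4, 21.5 and 20.6 CPM, and 24.4, 25.4 and 22.4 CPM. The groups did not overlap in either experiment. The rise was 1.87 ± 0.14 on the log2 scale (n = 3 per group, edgeR adjusted p = 1.59e-05) and 2.10 ± 0.34 (adjusted p = 4.80e-04). The difference between these rises was -0.22 (95% interval -1.03 to 0.58, adjusted p = 0.826).

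Both mixtures brought Ripk1 close to its level without light, and their libraries overlapped the no-light libraries. With BMT it was 7.17, 6.14 and 5.41 CPM, and with MDB 6.18, 6.51 and 7.51 CPM. Against light, Ripk1 fell by 1.78 ± 0.14 (adjusted p = 3.27e-05) and by 1.67 ± 0.14 (adjusted p = 3.98e-05) on the log2 scale. Against no light, the BMT difference was 0.09 (95% interval -0.22 to 0.40) and the MDB difference 0.20 (-0.11 to 0.51), neither called. As a share of the light rise in mean CPM, 2.40% remained with BMT (-0.57 to 5.06% with each BMT library left out) and 5.55% with MDB (3.06 to 7.31%). The mixtures differed from each other by -0.11 (-0.41 to 0.20, adjusted p = 0.692).

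Each single drug also lowered Ripk1 against light, and the 4 groups lay between the light and no-light means. BRM libraries held 7.95, 8.83 and 9.28 CPM, and MTP libraries 7.57, 10.9 and 7.25 CPM. The falls were 1.47 ± 0.33 (a log2 difference of -1.47, adjusted p = 0.00902) and 1.49 ± 0.33 (-1.49, adjusted p = 0.00961). TAM libraries held 8.38, 18.4 and 5.21 CPM, and DOX libraries 10.1, 10.8 and 12.5 CPM. The TAM libraries spread most. Their summed rod markers were 63006, 56443 and 88336 CPM in the same order, and the part of these rod levels in the result was not tested. The difference from light was -1.16 ± 0.33 with TAM (adjusted p = 0.0322) and -1.11 ± 0.32 with DOX (adjusted p = 0.0384). Leaving out any library of DOX or of the light group ended the DOX call (adjusted p 0.0539 to 0.149), as did the lens-fibre score as a covariate (0.0563). The TAM call was lost on leaving out TAM 1, TAM 3 or any light library (0.0641 to 0.133), and with only the groups compared in the fit (0.167).

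The share of the Ripk1 rise that remained was 16.7% with BRM, 16.0% with MTP, 27.3% with TAM and 30.0% with DOX. The TAM share rested on TAM 2, without which 6.40% remained, and the MTP share was 9.73% without MTP 2. Against no light, the log2 difference was 0.63 (95% interval -0.08 to 1.34) with BRM and 0.61 (-0.11 to 1.32) with MTP. It was 0.93 (0.22 to 1.65, adjusted p = 0.586) with TAM, or 0.26 (adjusted p = 0.887) without TAM 2, and 0.99 (0.28 to 1.70, adjusted p = 0.286) with DOX. All 3 BRM and all 3 DOX libraries lay above the no-light libraries, while MTP and TAM overlapped them. Over all tested genes the share wholly above no light was 10.2% with BRM, 7.29% with DOX, 5.78% with MTP, 4.66% with TAM, 4.46% with BMT and 7.57% with MDB. In order of mean Ripk1, light stood apart from DOX, and DOX, TAM, BRM, MTP and no light each overlapped the next. TAM and DOX, which block the same receptor class and were compared as 1 pair at doses not stated here, differed by -0.06 (-0.75 to 0.64).

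A comparison across experiments, chosen after the values were seen, took the remaining difference from no light in the mixtures minus that in the single drugs. For Ripk1 it was -0.66 (95% interval -1.35 to 0.03, edgeR adjusted p = 0.814). No gene in the table was called there, so the larger remainder with single drugs was not shown to differ from that with mixtures. At an unadjusted p under 0.05 the test gave 1021 of 16645 genes, and DESeq2 called 2.

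The Ripk1 locus holds other transcribed genes. Serpinb6a, a serpin gene on the opposite strand, overlaps the first 432 bases of Ripk1-001's span. Serpinb6a also rose, from 9.38 to 11.4 CPM without light to 17.8 to 19.1 CPM with light in the mixture experiment, by 0.84 ± 0.15 (edgeR adjusted p = 0.00294). In the single-drug experiment it rose by 1.10 ± 0.21 (adjusted p = 0.00155). Gm17084 lies on the same strand over the 3′ end, sharing 2108 bases. It rose as well, to 0.762 to 3.19 CPM with light from 0 to 0.0989 CPM without in the mixture experiment (edgeR adjusted p = 0.0345), and to 0.189 to 1.66 CPM from 0 to 0.101 CPM in the single-drug experiment (adjusted p = 0.0296). The kit marks strand, but the counting setting is not given in the sources used here, so shared reads cannot be told apart.

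Ripk1-002, which starts downstream of the Serpinb6a overlap, held 73.3% of all Ripk1 counts, and Ripk1-001 held 19.5%. Mean FPKM (fragments scaled to transcript length and library size) of Ripk1-002 was 1.23 without light and 3.87 with light in the mixture experiment. In the single-drug experiment it was 0.959 and 4.39. The Ripk1-001 share was 0.384, 4.71 and 17.0% without light and 20.6, 25.9 and 25.6% with light in the mixture experiment. The single-drug shares were 8.21 to 25.5% against 3.54 to 36.8%, and those groups overlapped. In the authors' deposited table, Ripk1-002 was the sole transcript of the 9 genes, among 521 in the mixture experiment and 622 in the single-drug experiment. The authors' deposited table gave it, relative to light, log2 changes of -1.50 without light, -1.39 with BMT and -1.41 with MDB. In the authors' deposited table for single drugs the changes were -2.02 without light, -1.35 with BRM, -1.40 with MTP, -1.19 with TAM and -1.27 with DOX.

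**Figure D2:**
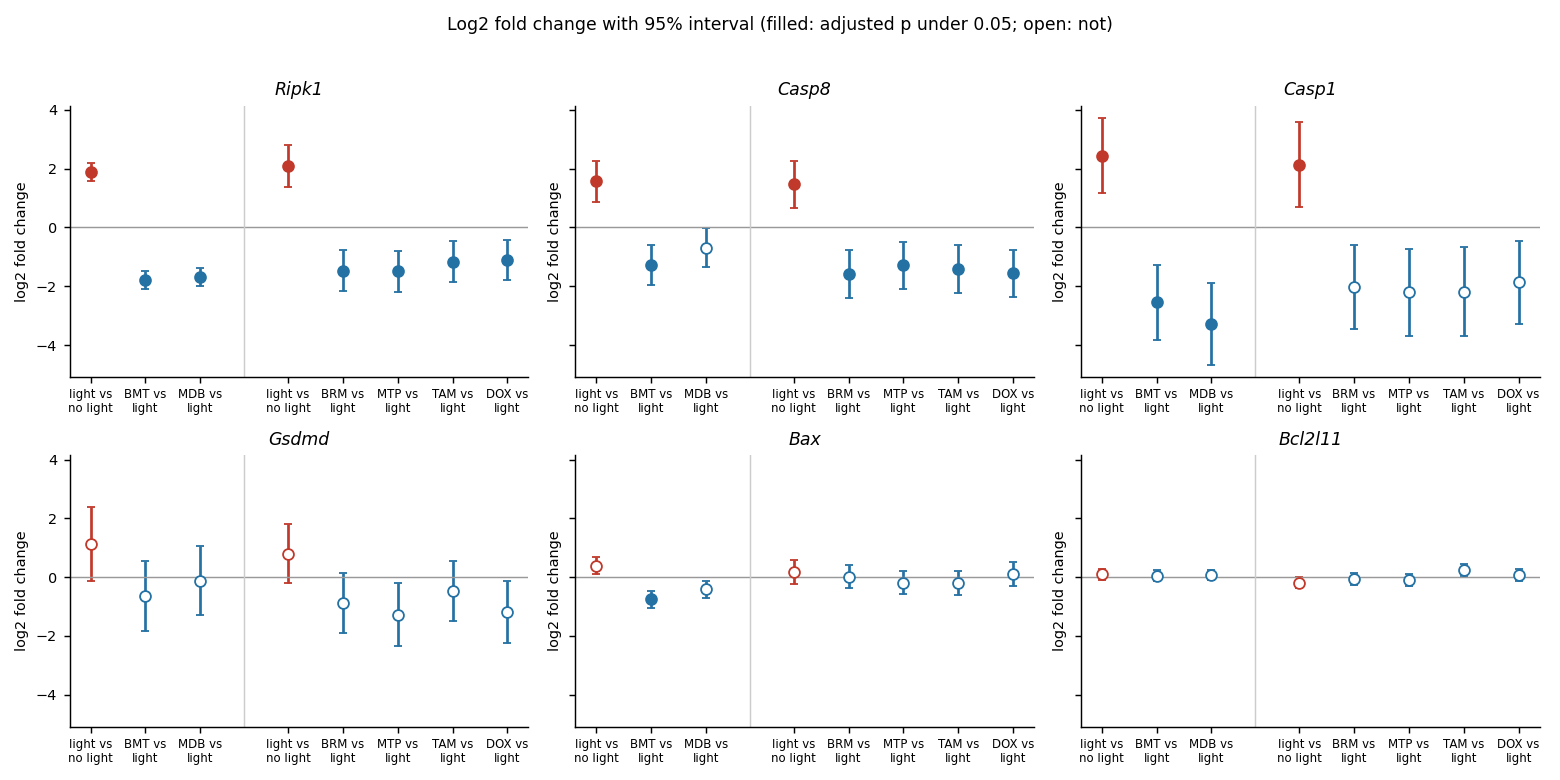
Log2 difference with its 95% interval from edgeR for the 6 tested genes, for light against no light and each pretreatment against light; filled points passed an adjusted p of 0.05. Ripk1 is above 0 with light (1.87 and 2.10) and below 0 with all 6 pretreatments.

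Ripk3 (ENSMUSG00000022221, chr14:55784996-55788857, minus strand) and Mlkl (ENSMUSG00000012519, chr8:111311797-111338177, minus strand), the kinase and the pore former downstream of RIPK1, were near the limit of detection. Ripk3 gave 36.7 counts over all 30 libraries, was at 0 in 12 of them and never exceeded 0.249 CPM. A count of 0 allows up to 3 counts, or 0.116 to 0.162 CPM in the mixture experiment and 0.135 to 0.250 CPM in the single-drug experiment, for counting error only. These limits use library totals without the scaling by trimmed means, so they match the levels given here only approximately. Without the filter on low counts, the Ripk3 light difference was 1.34 (edgeR adjusted p = 0.637) and 0.42 (adjusted p = 0.915). Differences in Ripk3 under that limit were not detectable at this depth. Mlkl gave 95.5 counts and was at 0 in 4 libraries. It was 0.263, 0.572 and 0.206 CPM with light against 0, 0.0989 and 0.0476 CPM without light in the mixture experiment. The single-drug experiment gave 0.426, 0.424 and 0.497 CPM against 0.101, 0.0929 and 0.0527 CPM. The 18 pretreated libraries held 0 to 0.314 CPM, each below the light libraries of its experiment. Without the filter on low counts the light difference was 2.70 (edgeR adjusted p = 0.113) and 2.36 (adjusted p = 0.139), so neither was called.

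Casp8 (ENSMUSG00000026029, chr1:58795374-58847503, plus strand), the brake on necroptosis, was measured at 0.660, 0.593 and 0.428 CPM without light in the mixture experiment. With light it was 1.67, 2.06 and 1.29 CPM. The single-drug experiment gave 1.41, 0.743 and 0.632 CPM without light and 3.02, 2.55 and 2.20 CPM with light. No light library overlapped a no-light library of its experiment. The rise was 1.57 ± 0.32 (edgeR adjusted p = 0.00648) and 1.47 ± 0.38 (adjusted p = 0.0101). The single-drug call was lost without no-light library 3 (log2 1.26, adjusted p = 0.0512).

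BMT and all 4 single drugs lowered Casp8 against light. BMT libraries held 0.772, 0.788 and 0.497 CPM, a difference of -1.27 ± 0.31 (adjusted p = 0.0165). MDB libraries held 0.923, 1.23 and 0.970 CPM, below every light library and above every no-light library, but the difference from light of -0.69 ± 0.30 was not called (adjusted p = 0.199). BMT and MDB differed by -0.59 (95% interval -1.28 to 0.11, adjusted p = 0.329), so the mixtures were not shown to act differently on Casp8. The single drugs gave 0.502 to 1.52 CPM, overlapping no light. The differences from light were -1.58 ± 0.38 with BRM (adjusted p = 0.0127), -1.28 ± 0.37 with MTP (0.0404), -1.41 ± 0.38 with TAM (0.0283) and -1.56 ± 0.38 with DOX (0.0171). Casp8 had 8.36 to 71.5 counts per library, and each of these calls was lost on leaving out certain single libraries. For BMT they were BMT 3, light 1 and light 2 (adjusted p 0.0550 to 0.0738), and for BRM they were BRM 1, BRM 2 and light 1 (0.0515 to 0.0597). For TAM they were TAM 2, TAM 3, light 1 and light 2 (0.0569 to 0.151), and for DOX they were DOX 1, DOX 2, light 1 and light 2 (0.0537 to 0.0776). The MTP call was lost without any one of its own or the light libraries (0.0585 to 0.152), with the lens-fibre covariate (0.122), without the filter on low counts (0.0581) and with limma on FPKM at a pseudocount of 0.1 (0.0522).

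Casp1 (ENSMUSG00000025888, chr9:5298517-5307265, plus strand), the inflammasome caspase, was the scarcest gene that was tested. It had 1.12 to 4.25 counts per library without light and 15.7 to 21.7 with light in the mixture experiment. These were 0.203, 0.0494 and 0.190 CPM against 0.966, 0.610 and 0.926 CPM. The single-drug values were 0.201, 0 and 0.263 CPM against 0.766, 0.848 and 0.456 CPM, again without overlap. The rise was 2.45 ± 0.58 (edgeR adjusted p = 0.0164) and 2.14 ± 0.68 (adjusted p = 0.0335). The mixture call was lost without light 1 (adjusted p = 0.0686) or no light 3 (0.0555), and among libraries with a lens-fibre score under 4 (0.0906). The single-drug call was lost without light 2 (0.112), no light 1 (0.0600) or no light 2 (0.0860), without the filter on low counts (0.0706) and with only the groups compared (0.0851).

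All 18 pretreated libraries had Casp1 below the light libraries. BMT gave 0.272, 0.0788 and 0.0552 CPM and MDB 0.0923, 0.0512 and 0.0970 CPM. The differences from light were -2.55 ± 0.58 (adjusted p = 0.0119) and -3.27 ± 0.63 (adjusted p = 0.00666). The BMT call was lost without BMT 3 (0.0606) or light 1 (0.0530), and among libraries with a lens-fibre score under 4 (0.0684). The single drugs held 0.0470 to 0.277 CPM, and their differences of -1.87 to -2.20 were not called (adjusted p 0.0569 to 0.0793). With limma on FPKM they were called (0.00339 to 0.0262).

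Casp4 (ENSMUSG00000033538, chr9:5308828-5336783, plus strand) follows Casp1 on the chromosome and encodes the caspase that senses cytosolic lipopolysaccharide. It gave 18.6 counts in all, and its estimated count rounded to 0 in 19 libraries, including every no-light library of the mixture experiment and every BMT and BRM library. Its light libraries held 0.176, 0.0381 and 0.103 CPM in the mixture experiment, and 0.0851, 0 and 0 CPM in the single-drug experiment. No fold is given, since these levels lie near or under that of 3 counts. Without the filter on low counts neither light difference was called by edgeR (adjusted p = 0.210 and 0.911).

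Gsdmd (ENSMUSG00000022575, chr15:75862339-75867404, plus strand) encodes the pore former of pyroptosis. It was 0.152, 0.445 and 0.190 CPM without light and 0.658, 0.191 and 0.926 CPM with light in the mixture experiment, so the groups overlapped. The single-drug values were 0.352, 0.279 and 0.421 CPM against 0.341, 0.801 and 0.704 CPM. The difference was 1.13 (95% interval -0.13 to 2.39, adjusted p = 0.241) and 0.80 (-0.21 to 1.82, adjusted p = 0.250). MDB libraries were close together at 0.554, 0.512 and 0.533 CPM, above all no-light libraries, with a difference from no light of 1.01 (-0.26 to 2.27, adjusted p = 0.528). No pretreatment was called against light, and the libraries of each overlapped the light libraries. The differences from light ran from -0.12 with MDB to -1.27 with MTP (95% interval -2.33 to -0.21, edgeR adjusted p = 0.126). With DOX the difference was -1.18 (-2.23 to -0.14, adjusted p = 0.126). As above, Gsdmd entered the single-drug tests only through its light libraries.

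Bax (ENSMUSG00000003873, chr7:45461695-45466898, minus strand) encodes the executioner of the outer mitochondrial membrane. In the mixture experiment it was 15.3, 22.8 and 19.2 CPM without light and 26.1, 23.9 and 24.9 CPM with light. These did not overlap, but the difference of 0.39 ± 0.13 was not called (adjusted p = 0.0837). It was called with FPKM (0.0113 and 0.0119 at pseudocounts of 1 and 0.1), among libraries with a lens-fibre score under 4 (0.0408) and without no light 2 (0.0158). Bax in the single-drug experiment was 18.1, 17.3 and 18.3 CPM against 18.0, 17.2 and 25.5 CPM, and the difference was 0.17 (-0.23 to 0.57). BMT lowered Bax against light, to 14.9, 13.7 and 16.0 CPM, by 0.75 ± 0.13 (a log2 difference of -0.75, adjusted p = 0.00306). The BMT mean of 14.9 CPM also lay under the no-light mean of 19.1 CPM. The BMT and no-light libraries overlapped, and their difference was not called. MDB gave 20.7, 18.4 and 17.2 CPM and an uncalled -0.41 ± 0.13 (adjusted p = 0.0777). This was called with DESeq2 (0.0385), with only the groups compared (0.0208) and with limma on FPKM (0.0183 and 0.0198 at pseudocounts of 1 and 0.1). All BMT libraries lay below all MDB libraries, as for 13.9% of tested genes, with a difference of -0.34 (-0.63 to -0.04, adjusted p = 0.220). The single drugs held Bax at 12.1 to 23.1 CPM, with differences from light of -0.19 to 0.10. All BRM and all DOX libraries lay above the no-light libraries, as for 10.2% and 7.29% of tested genes, and neither difference was called. MTP and TAM overlapped no light.

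Bcl2l11 (ENSMUSG00000027381, chr2:128126038-128162547, plus strand) encodes BIM, a BH3-only activator of BAX. It varied least, from 16.9 to 24.6 CPM over all libraries. The light difference was 0.09 (-0.09 to 0.28, adjusted p = 0.522) in the mixture experiment and -0.19 (-0.38 to 0.01, adjusted p = 0.158) in the single-drug experiment. The difference between these was 0.28 (0.05 to 0.52, adjusted p = 0.242). TAM gave 24.6, 22.6 and 22.3 CPM, above the light libraries at 19.2, 20.6 and 19.0 CPM, but this was not called (0.24 ± 0.09, adjusted p = 0.107). With the lens-fibre score as a covariate it was (adjusted p = 0.0420). The share of all genes wholly above light with TAM is not given here, so that separation is a description. Against no light, TAM, DOX and MDB libraries overlapped. All BMT libraries lay above no light, as for 4.46% of tested genes. All BRM and all MTP libraries lay below it, as did the light libraries of the single-drug experiment. No pretreatment was called against no light.

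By pretreatment, 4 of the 6 tested genes were called lower than light with BMT (Ripk1, Casp1, Casp8, Bax) and 2 with MDB (Ripk1, Casp1). With each of BRM, MTP, TAM and DOX, 2 were called lower (Ripk1, Casp8), and no member was called higher in any of these 6 comparisons. As above, Casp1 entered these tests only through its light libraries. The shares of all genes called lower were 9.78% with BMT, 5.93% with MDB, 7.32% with BRM, 4.91% with MTP, 4.00% with TAM and 5.06% with DOX. The shares called higher were 7.96, 3.70, 7.08, 5.37, 6.60 and 6.79% in that order, and the shares with all libraries below light 21.9, 16.8, 20.5, 16.4, 14.2 and 17.6%. All comparisons of one experiment share their 3 light libraries. With the lens-fibre score as a covariate the TAM count became 4, with 1 higher, and with TAM and light alone it became 0.

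Against no light, no member was called with any pretreatment by edgeR, and no gene of the table was, so the background is 0%. At an unadjusted p under 0.05, 1 of the 6 tested members passed in each of these comparisons, beside 1009 to 2535 genes of 16007 or 16249. DESeq2 called 3 to 414 genes there and no member. The same held between BMT and MDB (0 by edgeR, with 3001 genes and 1 member at an unadjusted p under 0.05 and 716 genes by DESeq2). Between TAM and DOX, 0 genes were called by edgeR and 130 by DESeq2, with 2519 genes and 0 members at an unadjusted p under 0.05. For the difference of the light effect between experiments, 0 genes were called by edgeR and 423 by DESeq2. At an unadjusted p under 0.05 there were 2518 genes and 1 member, so the absence of a call does not show equal effects.

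Per length, in FPKM, the members kept a wide range of levels. Bax was most abundant, with a median of 24.0 FPKM over 30 libraries (14.8 to 36.1), followed by Bcl2l11 at 4.81 (3.72 to 6.69) and Ripk1 at 2.17 (1.19 to 8.22). Casp8 had a median of 0.437 FPKM, Gsdmd 0.226, Casp1 0.134, Mlkl 0.0686 and Ripk3 0.0277. Casp4 had a median of practically 0. Without light, Ripk1 (1.19 to 2.01 FPKM in all 6 libraries) lay below Bcl2l11 (3.99 to 6.01). With light the order turned, with Ripk1 at 6.09 to 6.95 FPKM against Bcl2l11 at 4.81 to 5.30 in the mixture experiment. Light in the single-drug experiment gave 6.71 to 8.22 against 4.57 to 6.51 FPKM.

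**Figure D3:**
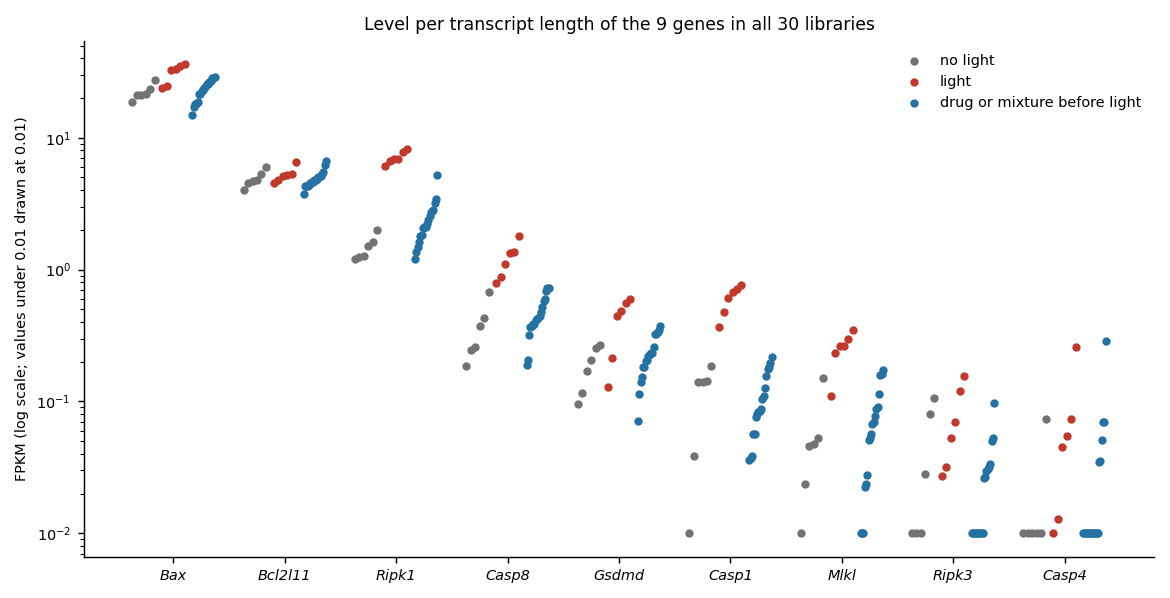
Level per length of the 9 genes in FPKM on a log axis, 1 point per library for all 30, coloured by no light, light and pretreatment before light, with values under 0.01 drawn at 0.01. Ripk1 lies at 1.19 to 2.01 FPKM without light, below Bcl2l11, and at 6.09 to 8.22 FPKM with light.

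Other genes of these pathways were taken from 4 lists whose members were chosen with earlier results of these data known, and a gene of a list is named by the smallest adjusted p or because the rule always names it. Of 20 genes of TNF receptor signalling and necroptosis, 19 were tested in the mixture experiment, 5 rose and 1 fell. For single drugs 18 were tested, 4 rose and 1 fell. The list's median log2 difference was 0.24 and 0.05. These counts and those of the lists below stand beside 7.75% of all genes called higher and 5.47% lower in the mixture experiment, 11.4% and 12.6% in the single-drug experiment, and medians over all genes of 0.01 and 0.02. Of the genes named from the lists, Zbp1, Bik and Il1rn passed the filter on low counts only through the light libraries wherever they were tested. Over all tested genes of this list, that held for 1 of 19 in the mixture experiment and 0 of 18 for single drugs. For the lists below it held for 2 of 11 inflammasome, 2 of 13 BCL-2 and 1 of 15 caspase genes in the mixture experiment. The single-drug numbers were 2 of 12, 0 of 13 and 1 of 15. The list counts and medians are therefore descriptions. Tnfrsf1a, the main TNF receptor, rose from a mean of 4.13 to 18.5 CPM (2.16 ± 0.30, adjusted p = 7.01e-04) and from 4.63 to 19.0 CPM (2.03 ± 0.45, adjusted p = 0.00414). Eif2ak2, the double-stranded RNA kinase PKR, rose by 2.31 and 2.30 and was lower than light with all 6 pretreatments. Rnf31, a subunit of the linear ubiquitin ligase that stabilises RIPK1 complexes, rose by 1.15 and 0.49.

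Tnfaip3, which encodes the deubiquitinase A20 that restrains RIPK1 signalling, was the list's one gene that fell. Its mean level went from 406 to 159 CPM in the mixture experiment (-1.35 ± 0.13, edgeR adjusted p = 6.32e-05). In the other experiment it went from 420 to 129 CPM (-1.71 ± 0.18, adjusted p = 7.74e-05). All 6 pretreatments held it above light, by 1.11 to 1.43. Tnfrsf1a was called lower than light with BMT (-1.78) and MDB (-1.66), while its differences of -0.83 to -1.41 with single drugs were not called. Cflar, which encodes the caspase-8 inhibitor cFLIP, was at 80.1 and 79.5 CPM with light, and its differences of 0.02 and -0.18 were not called. Zbp1, the nucleic acid sensor that can engage RIPK3, had an uncalled difference of 2.49 ± 0.98 (adjusted p = 0.125) and was too scarce for a test in the single-drug experiment. Tnf was not tested, with means of 0.0810 CPM without and 0.384 CPM with light in the mixture experiment and 0.118 and 0.247 CPM in the other.

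Of 19 inflammasome and pyroptosis genes, 11 were tested in the mixture experiment and 4 rose. For single drugs 12 were tested, 5 rose and 1 fell, and the medians were 0.66 and 0.65. Gbp2 and Gbp5, interferon-induced GTPases that assist inflammasomes, rose by 2.57 and 1.95 in the mixture experiment and by 2.58 and 2.40 in the single-drug experiment. Il1r1, the interleukin-1 receptor, rose by 1.73 and 1.62. Gbp5 and Il1r1 were lower than light with all 6 pretreatments. Il1rn, the receptor antagonist, was at 0 in all no-light libraries of the mixture experiment and at a mean of 1.35 CPM with light, and rose to 1.81 CPM in the single-drug experiment. The adaptor Pycard was not called (0.66 ± 0.51 and 0.93 ± 0.51). Nlrp3 and Il1b were too scarce to test, with light means of 0.315 and 0.144 CPM in the mixture experiment and 0.288 and 0.344 CPM in the single-drug experiment.

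Of 15 BCL-2 family genes, 13 were tested in each experiment, and 3 rose and 2 fell in each. The medians were 0.24 and 0.05. Mcl1, an anti-apoptotic member, rose by 0.44 ± 0.07 and 0.83 ± 0.11 and was lower than light with all 6 pretreatments. Bcl2 and Bcl2l2, also anti-apoptotic, fell by 0.38 and 0.32 in the mixture experiment and by 0.71 and 0.34 in the single-drug experiment. The BH3-only gene Bik rose by 3.26 ± 0.84 in the mixture experiment, where it was at most 0.198 CPM without light and 0.527 to 0.875 CPM with light, and was not tested in the other. Bbc3 (PUMA) was not called with light (1.09 ± 0.43 and 0.77 ± 0.49) but was lower with BMT than with light (-1.94 ± 0.45, adjusted p = 0.0133).

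Of 16 caspase and death receptor genes, 15 were tested in each experiment. None rose and 2 fell in the mixture experiment, while 4 rose and 2 fell in the single-drug experiment, and the medians were 0.03 and 0.39. Xiap, an inhibitor of caspases, fell from a mean of 989 to 526 CPM (-0.91 ± 0.13) and from 1103 to 474 CPM (-1.22 ± 0.15). It was higher than light with all 6 pretreatments, by 0.74 to 1.15. Fas, a death receptor, rose in the single-drug experiment (3.22 ± 0.72, adjusted p = 0.00433), and its difference of 1.78 ± 0.69 in the mixture experiment was not called (adjusted p = 0.122). Tnfrsf10b was not called in either (0.53 and 0.89).

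**Figure D4:**
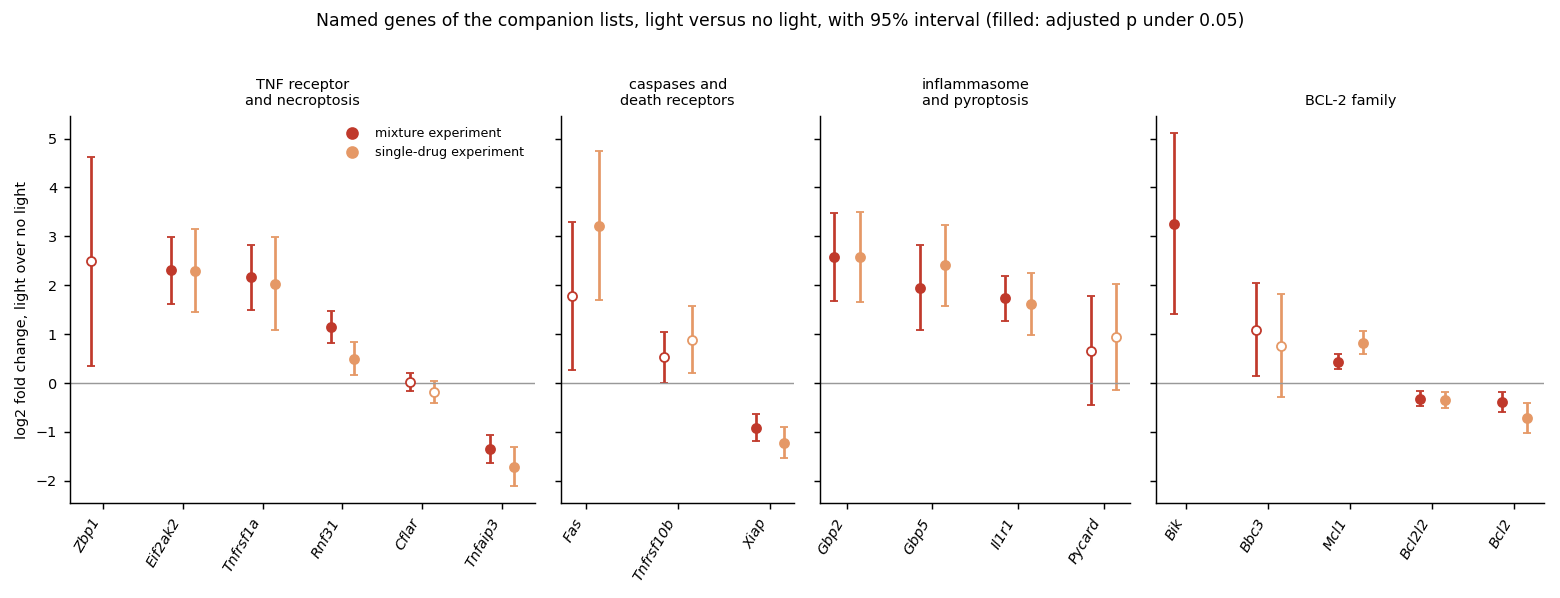
Log2 difference of light against no light with its 95% interval for the genes named from the 4 lists, in both experiments; filled points passed an adjusted p of 0.05, and Zbp1 and Bik have no test in the single-drug experiment and Il1rn is not drawn. Tnfaip3 (-1.35 and -1.71) and Xiap (-0.91 and -1.22) lie below 0 in both.

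Markers of retinal cell types moved with light as well. Rod markers fell, 9 of 10 in the mixture experiment and 10 of 10 in the single-drug experiment, with summed levels of 74131 to 87281 against 41225 to 50289 CPM and 81833 to 88208 against 26318 to 37023 CPM. They were called higher than light, 9 or 10 of 10, with every pretreatment. Microglial markers summed to 66.1 to 67.8 CPM without light and 58.5 to 67.4 CPM with light in the mixture experiment. The single-drug sums were 61.7 to 72.5 and 75.0 to 82.4 CPM. Of 14, Cd68 and Tyrobp rose (2.19 and 0.85, 1.92 and 1.19) and P2ry12 fell (-1.57 and -2.10).

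Of 10 markers of other leukocytes, 4 were tested and 0 called by edgeR, and their sums were 3.30 to 6.23 against 5.57 to 9.83 CPM and 3.90 to 8.71 against 8.44 to 10.2 CPM. Cd3e of T cells was at 0 in 25 libraries. Of 6 endothelial markers, Kdr rose (1.24 and 1.21), from 74.8 to 79.9 CPM without light to 160 to 201 CPM with light and from 66.1 to 106 to 167 to 287 CPM. The other 5 (Pecam1, Cdh5, Cldn5, Tek and Emcn) were not called and lay at 0.685 to 6.51 CPM in these libraries, so the endothelial sum follows Kdr. Of 8 Müller glia markers, Slc1a3 rose (0.75 and 0.89) and Glul fell (-1.87 and -1.73), and Rlbp1 fell in the mixture experiment (-0.39) with an uncalled -0.27 in the other. None of the lens-fibre markers (6 tested) or retinal pigment epithelium markers (6 and 5 tested) was called by edgeR. The part of these shifts in the levels of the 9 genes was not tested.

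**Figure D5:**
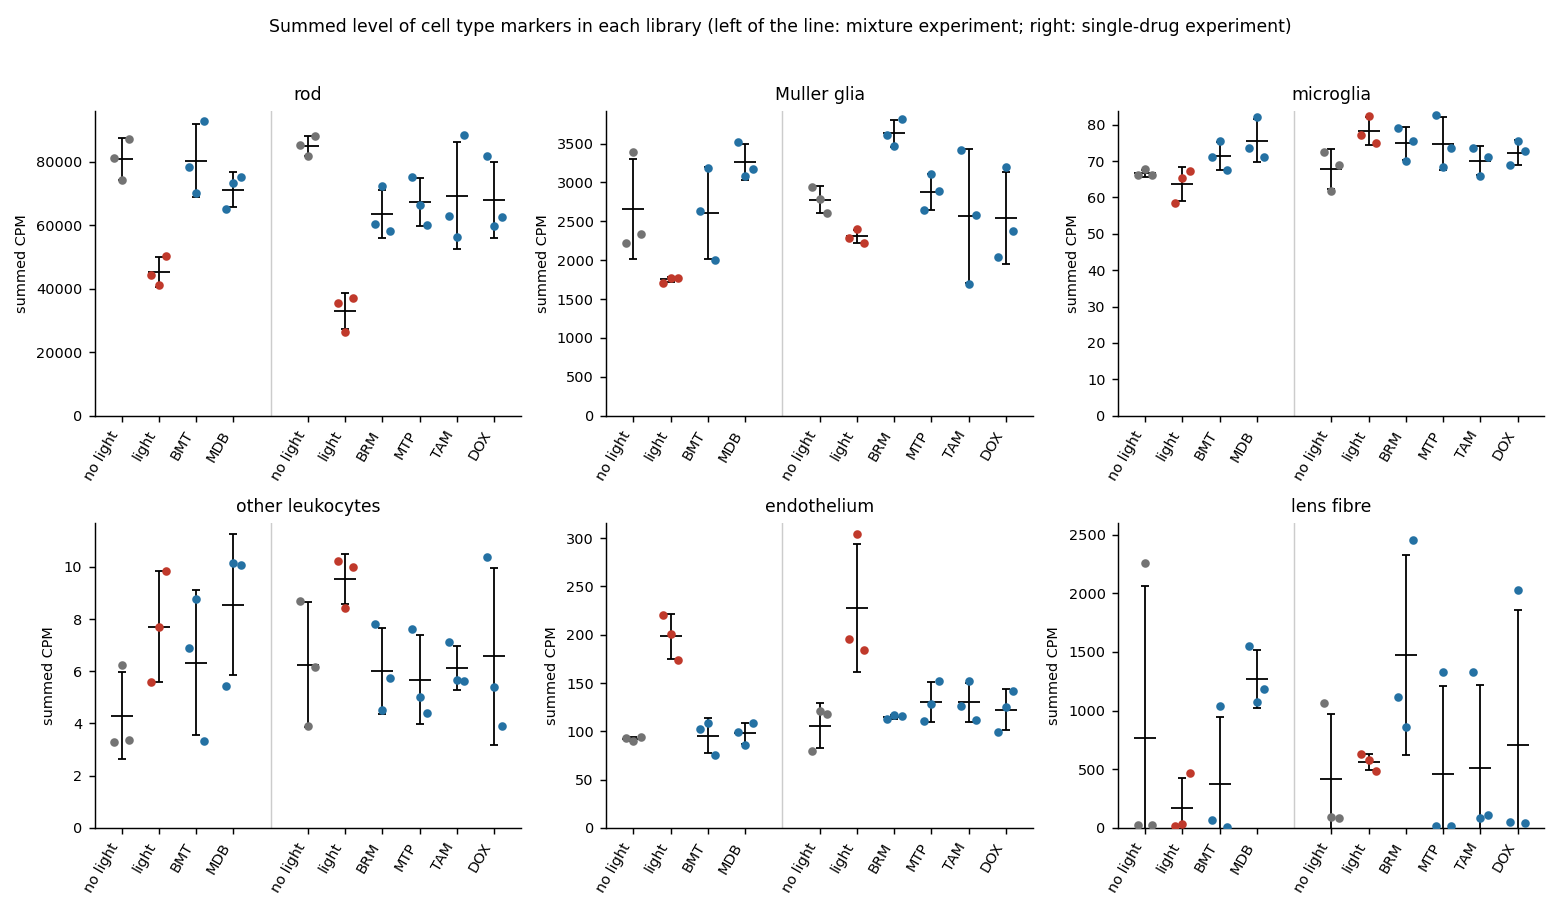
Summed CPM of the markers of 6 cell types in each library, on a linear axis per panel; points are libraries, horizontal lines means and error bars SD of 3. Rod sums of the 6 light libraries lie at 26318 to 50289 CPM, below all other libraries, and lens-fibre sums vary within groups.

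Over the 30 libraries, with each gene centred on its mean in each experiment, the genes of sufficient level most like each member were found among 12923. For Ripk1 they were E2f6 (Pearson r = 0.973), Skap2 (0.969) and Prtg (0.968). For Casp8 they were Samd9l (0.901), Ctsh (0.879) and Ildr2 (0.876), and for Casp1 Padi2 (0.868), Extl2 (0.864) and Mitd1 (0.856). For Mlkl they were Elk3 (0.835), Seh1l (0.805) and Slc50a1 (0.801), and for Bax Ccm2 (0.863), Eif3i (0.858) and Map1lc3a (0.857). The best match reached 0.667 for Gsdmd, 0.625 for Ripk3, 0.685 for Casp4 and 0.616 for Bcl2l11. Among the members themselves, Mlkl and Casp8 reached 0.803, Ripk1 and Casp8 0.798, Ripk1 and Casp1 0.770, and Ripk1 and Mlkl 0.754. Libraries of a group share its treatment, so these values describe the pattern over groups and carry no test.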

How the data were processed

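RNA-seq of 30 libraries was used as deposited. Per the labels' protocols, poly(A) RNA from Trizol extracts was made into stranded libraries by a dUTP method. The submitters' processing notes name Trimmomatic, Bowtie2, TopHat2, eXpress, edgeR, limma and GRCm38.p3, with no versions, and no source used here states the strand setting of counting. The authors deposited eXpress effective counts, which are estimated counts per transcript, and FPKM values per transcript. The authors' deposited tables of differential expression hold log2 changes and adjusted p-values per transcript.

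Here the estimated counts of 102906 transcripts were summed to 42439 genes and rounded. Genes were filtered by filterByExpr, scaled by trimmed means of M values, and tested with edgeR 4.0.16 in R 4.3.3 by the two-sided quasi-likelihood test, all groups of an experiment in 1 fit. P-values were adjusted by the Benjamini-Hochberg method over all genes tested. Intervals are 95%. The method was checked on simulated data. Changes were put only into genes with higher counts, so recovery of changes in genes as scarce as Casp1 and Gsdmd was not checked. CPM values use the same scaling, and lens markers use 1 identifier per symbol.

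Alternatives were DESeq2 1.42.0, its size factors, no filter, limma 3.58.1 on log2(FPKM + 1) and log2(FPKM + 0.1), a lens-fibre covariate, the groups compared alone, the replicate number as a block, and each library left out. An alternative keeping libraries with a lens-fibre score under 4, and the comparison of remaining differences, were chosen after seeing the data. The members and all lists were chosen with earlier results of these data known. All 9 members are described. From each companion list the text names the 4 tested genes with the smallest adjusted p in the mixture experiment, and always Cflar, Zbp1, Tnf, Pycard, Nlrp3, Il1b, Bcl2, Mcl1, Bbc3 and Fas, except that some genes the rule selects are not reported here. Patterns were compared as log2 CPM (prior count 1) for genes with a mean of at least 1. The deposited normalized FPKM were not used here. Gsdme entered its list under the older symbol in the tables, Dfna5.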

Additional observations from a re-analysis of the deposited data

How the results depend on the processing

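The falls and rises of Ripk1 with light, BMT, MDB, BRM and MTP were called under every alternative run, and no member's call changed direction under any. Among the comparisons of a single member, 747 of the values with a library left out stayed on their side of the threshold, 39 were lost and 1 was gained. Under other alternatives 820 stayed, 10 were lost and 19 were gained. Most of these comparisons were uncalled, and the values that stayed include uncalled ones that remained so. Only a called comparison could be lost, so the numbers that stayed are not the base for the losses. The number of members called moved from 2 to 4 with MDB under limma on FPKM with a pseudocount of 1. With MTP it moved from 2 to 1 without the filter on low counts and to 1 with the lens-fibre covariate. With TAM it moved from 2 to 0 when only the groups compared were fitted, and to 4 with the lens-fibre covariate (3 lower and 1 higher than light). With DOX it moved from 2 to 1 with that covariate. This list is not complete. For light in the single-drug experiment, edgeR lost Casp1 without the filter on low counts (adjusted p = 0.0706) and with only the groups compared (0.0851). Under limma on FPKM, Casp1 was gained with each single drug and Bax for light in the mixture experiment. The cause of these moves was not tested.

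Leaving out 1 library at a time gave 2 to 4 members called for light in the mixture experiment, 2 to 3 for light in the single-drug experiment, 2 to 4 with BMT, 2 to 2 with MDB, 1 to 2 with BRM, 1 to 1 with MTP, 0 to 1 with TAM and 0 to 1 with DOX. All other comparisons gave 0 to 0.

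Same-numbered libraries did not in general deviate together. The median r was -0.05 in the mixture experiment, with 4 of 18 pairs over 0.1, and -0.04 in the single-drug experiment, with 15 of 45. Single pairs reached 0.777 and 0.664. The numbers were not used as pairs in the main fit, and whether some same-numbered libraries shared a batch was not tested. With the replicate block, members called were 3 for light in each experiment, 4 with BMT, 2 with MDB and each single drug, and 0 elsewhere, as without it.

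Among libraries with a lens-fibre score under 4, light in the mixture experiment gave 3 members called and BMT 3. This left out 1 library each of no light, light and BMT. The 3 for light were not the same genes as before, since edgeR lost Casp1 (adjusted p = 0.0906) and gained Bax (0.0408). With BMT, Casp1 was lost (0.0684). The share of all genes called in this subset is not given here, so these counts are descriptions. The other pretreatments could not be compared with light this way, because MDB, BRM and the single-drug light group held no such library. Low counts limit Casp1 and Casp8, and Ripk3, Mlkl and Casp4 were tested only without the filter on low counts, where none was called.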
